A study of Rattus norvegicus with 4 samples.

Results

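Hepatocytes keep their identity through a small network of DNA-binding proteins that switch on the liver's metabolic and secretory genes and regulate one another. The genes described here are 8 of them: Hnf4a, Foxa1, Foxa2, Foxa3, Cebpa, Cebpb, Onecut1 and Prox1. Their probes were found by gene symbol in the platform's annotation. Of the 8 genes, 7 had at least 1 probe of their own, 9 probes in all, out of 8981 genes measured, and Cebpb was not analysed here. A further probe carries the symbols of both Foxa2 and Foxd1 and was counted for neither. The scanner reports themselves give it a RefSeq transcript of Foxa2. All 10 probes were above background on all 4 arrays.

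HNF4A is a nuclear receptor that binds the control regions of many hepatocyte genes. The FOXA proteins are pioneer factors, able to bind DNA in closed chromatin, and C/EBP alpha and beta are leucine zipper proteins of metabolic and acute phase control. ONECUT1, also called HNF6, and PROX1 carry homeodomains and act in liver development as well as in the adult organ.

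The livers came from 4 male Otsuka Long-Evans Tokushima Fatty rats, an inbred strain that lacks a working receptor for the satiety hormone cholecystokinin, overeats, becomes obese and develops diabetes. From 4 weeks of age 2 of them drank water with 0.2% thiamine, vitamin B1, or 2 g per L, and the 2 untreated rats drank water with 0% thiamine, for 51 weeks. All were on standard chow and were killed at 55 weeks of age after a fast of 16 h. The 4 arrays hold no lean strain, and 2 rats of each group of 8 were measured, each on an array of its own.

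The arrays were 1-colour CodeLink slides, which report the brightness of a spot, and every level below is a normalized intensity on the log2 scale. Between 18176 and 20071 of 33849 gene probes were above background on an array, and between 1.49% and 7.49% of spots were flagged as contaminated. Precision is limited by having 4 arrays. Of the 18664 probes kept, 0 passed an adjusted p of 0.05 in limma (Benjamini-Hochberg), a background of 0%, and 1260 had an unadjusted p under 0.05. It called 2 probes without thiamine rat 1, 87 without thiamine rat 2, and 83 and 74 with untreated rat 1 or 2 left out. Of 15 hepatocyte markers 13 were measured, albumin (Alb), transthyretin (Ttr) and apolipoprotein A1 (Apoa1) among them. All 13 were above background on all 4 arrays, but so were 8215 of 8981 genes. Only genes past a background filter count as measured. The median level of the 13 markers was between 14.57 and 14.84 on the 4 arrays, beside 9.34 to 9.35 over all genes.

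None of the 7 measured factors passed the test, and each is given by its values. In bulk liver, fewer cells of a type and less RNA per cell cannot be told apart. Foxa2, Cebpa and Onecut1 were higher on both thiamine arrays than on either untreated array, by 0.44 ± 0.23, 0.31 ± 0.19 and 0.29 ± 0.18 (log2, limma's moderated SE, n = 2 per group). For Hnf4a, Foxa1, Foxa3 and Prox1 the groups overlapped, and their differences were -0.04 ± 0.18, -0.26 ± 0.21, -0.06 ± 0.19 and -0.03 ± 0.21. Among all 8981 genes 18.5% lay higher on every thiamine array and 19% lower, against 3 and 0 of these 7. The unadjusted p was under 0.05 for 0 of the 7, where 3.83% of all genes were at such a p and higher and 3.06% were at such a p and lower. The adjusted p over the 10 probes ran from 0.80 to 0.99 (limma). The median difference of the 7 factors was -0.03, beside 0.0035 over all genes, with 3 above 0 and 4 below.

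**Figure D1:**
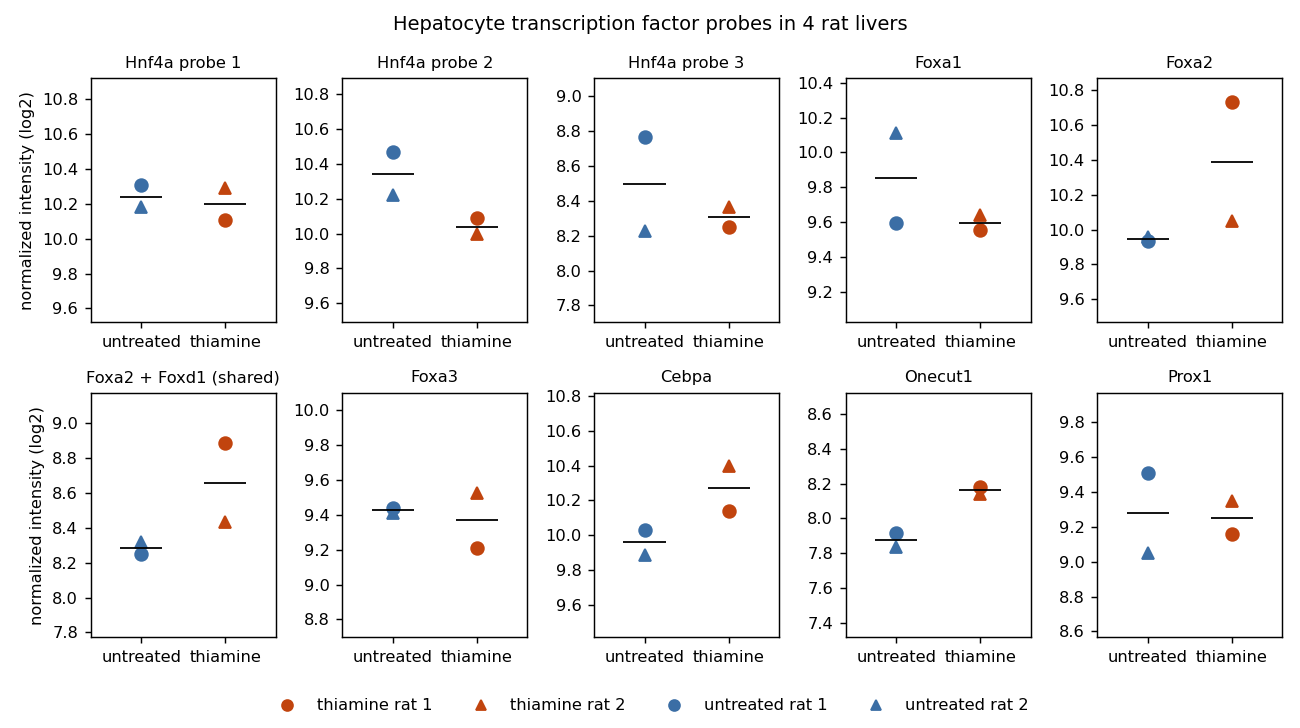
Normalized log2 intensity of each of the 10 probes (vertical axis, the same span of 1.4 in every panel) in the untreated and thiamine rats, with a symbol per rat and a bar at the group mean. Foxa2, the probe listed for Foxa2 and Foxd1, Cebpa and Onecut1 have both thiamine rats above both untreated rats, and probe 2 of Hnf4a has both below.

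Hnf4a, the nuclear receptor of the network, was measured with 3 probes. Its brightest probe stood at 10.11 and 10.29 in thiamine rats 1 and 2 and at 10.31 and 10.18 in untreated rats 1 and 2. These values overlapped, and the 4 livers lay within 0.20 of each other, the narrowest span among the 7 factors. Probe 2 read 10.09 and 9.999 with thiamine and 10.47 and 10.22 without, so both thiamine livers were lower, by -0.30 ± 0.19 (adjusted p = 0.84, limma). Probe 3, at 8.25 and 8.37 against 8.77 and 8.23, overlapped with a difference of -0.19 ± 0.21. All 3 probes thus had a difference below 0, but that of the brightest turned to 0.053 when thiamine rat 1 was left out and to 0.029 when untreated rat 1 was, and that of probe 3 was 0.085 without untreated rat 1. The limma 95% interval of the brightest probe ran from -0.44 to 0.37, which holds changes from 0.74-fold to 1.29-fold.

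The gene starts at either of 2 promoters. Adult hepatocytes mainly use the downstream one, while the upstream one is known from fetal liver and pancreas. The windows from 250 bases before to 50 bases after each start (RefSeq, GRCr8) are shown here, 5′ to 3′, with matches of 7 motifs in capitals, because letters known for ONECUT1, another of these factors, occur in one of them.
Hnf4a upstream start, chr3:172605970-172606269, plus strand: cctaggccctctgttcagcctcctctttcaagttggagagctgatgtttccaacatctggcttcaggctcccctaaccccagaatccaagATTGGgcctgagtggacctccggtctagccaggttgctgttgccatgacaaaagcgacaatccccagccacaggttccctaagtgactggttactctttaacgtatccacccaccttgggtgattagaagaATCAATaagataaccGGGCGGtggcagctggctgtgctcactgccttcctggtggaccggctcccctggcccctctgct
Hnf4a downstream start, chr3:172641586-172641885, plus strand: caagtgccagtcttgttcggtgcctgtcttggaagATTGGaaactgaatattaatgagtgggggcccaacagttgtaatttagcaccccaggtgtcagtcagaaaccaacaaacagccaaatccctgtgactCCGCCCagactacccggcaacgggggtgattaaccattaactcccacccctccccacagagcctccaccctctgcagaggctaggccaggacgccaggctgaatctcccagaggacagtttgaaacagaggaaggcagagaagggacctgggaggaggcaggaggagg
The motifs, searched on both strands, were TGTTTAC for FOXA factors, TTGCNNAA for C/EBP factors, CAAAGTCCA for HNF4A, ATTGAT for ONECUT1, CCAAT for NF-Y, GGGCGG for Sp1-like factors and TATAAA for the TATA box. The ONECUT1 letters, as ATCAAT on the other strand, begin 29 bases before the upstream start. Of all 33469 windows of this length 8.06% hold them. A CCAAT match on the other strand (37.5% of windows) and a GC box (33.1%) occur in both Hnf4a windows. Which promoter gave the measured RNA cannot be told from these probes.

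The Foxa genes encode forkhead pioneer factors that are closely related in their DNA-binding domain, and their probes gave different patterns. Foxa2 was at 10.73 and 10.05 in thiamine rats 1 and 2 and at 9.93 and 9.96 in untreated rats 1 and 2. Thiamine rat 1 was high and the other livers lay close together, so the gap of 0.68 between the thiamine rats was larger than the difference of 0.44 between the groups. That difference corresponds to 1.36-fold, with a limma 95% interval from 0.96-fold to 1.93-fold (adjusted p = 0.80). Leaving out thiamine rat 1 gave 0.10, and leaving out thiamine rat 2 gave 0.79. The probe listed for both Foxa2 and Foxd1 read 8.89 and 8.43 with thiamine and 8.25 and 8.32 without, a difference of 0.37 ± 0.20, again with thiamine rat 1 highest. Leaving out thiamine rat 1 gave 0.15, and leaving out thiamine rat 2 gave 0.60.

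Foxa1 was at 9.55 and 9.64 in the thiamine livers and at 9.60 and 10.11 in the untreated ones. Here untreated rat 2 stood above the rest, and the difference of -0.26 became 0.00034 without it and -0.52 without untreated rat 1. Foxa3, whose product is linked to glucose metabolism in the adult liver, read 9.21 and 9.53 against 9.44 and 9.41, and its difference turned to 0.099 without thiamine rat 1. To compare the family members with each other, the difference of their differences was tested over the 4 rats in 3 pairs. Foxa1 differed from Foxa2 by -0.70 with groups that were apart (two-sided exact permutation p = 0.33, the smallest that 2 against 2 rats allow, and 0.67 adjusted over the 3 pairs). Foxa2 differed from Foxa3 by 0.50 and Foxa1 from Foxa3 by -0.20, both with overlapping groups (exact permutation p = 0.67 each, and 0.67 adjusted). With 2 rats per group this test could not pass 0.05 whatever the values.

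The Foxa2 window is printed because both probes that carry this symbol lay higher with thiamine.
Foxa2, chr3:155927459-155927758, minus strand: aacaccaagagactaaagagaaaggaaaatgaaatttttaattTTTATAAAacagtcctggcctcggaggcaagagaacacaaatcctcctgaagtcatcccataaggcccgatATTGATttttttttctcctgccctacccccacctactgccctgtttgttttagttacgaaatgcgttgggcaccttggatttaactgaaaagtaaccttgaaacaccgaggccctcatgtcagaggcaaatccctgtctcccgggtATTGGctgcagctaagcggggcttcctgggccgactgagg
It holds ATTGAT beginning 136 bases before the start, and TATA letters on both strands, overlapping, beginning 207 and 205 bases before it, which 14.2% of all windows hold. A CCAAT match on the other strand lies after the start. The FOXA letters, present in 3.78% of windows, are not in this one, nor are the C/EBP letters (10.6% of windows) or the HNF4A letters (0.391%). Its GC content is 46.7%, below the median of 51.7% over all windows, and that of Foxa3 is 70.3%.

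**Figure D2:**
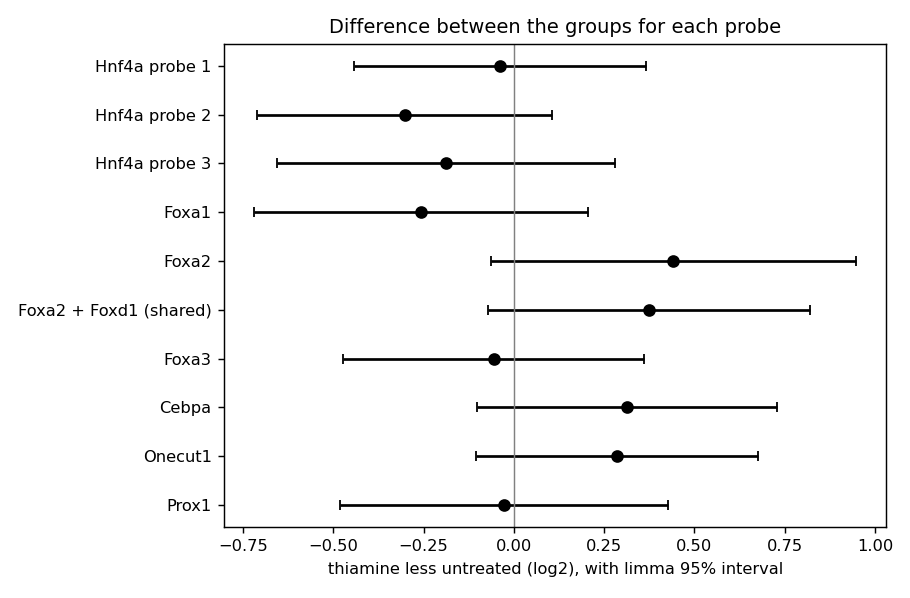
Thiamine less untreated on the log2 scale (horizontal axis) for each of the 10 probes, as points with limma's 95% interval. Every interval crosses 0, and that of Foxa2, from -0.06 to 0.95, reaches highest.

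Cebpa encodes C/EBP alpha, a factor of glucose and nitrogen metabolism that also holds back hepatocyte division. It was at 10.14 and 10.40 in thiamine rats 1 and 2 and at 10.03 and 9.89 in untreated rats 1 and 2. Both thiamine livers were higher, though thiamine rat 1 exceeded untreated rat 1 by less than the 2 thiamine rats differed. The difference of 0.31, or 1.24-fold, had a 95% interval from 0.93-fold to 1.66-fold (limma, adjusted p = 0.83). The value lay between 0.18, when thiamine rat 2 was left out, and 0.44, when thiamine rat 1 was. Its sign could hardly turn this way, since both thiamine livers were higher. On the unnormalized scale, the background-subtracted intensities were 1141 and 1383 with thiamine and 907.8 and 828.1 without.

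The Cebpa window is given as the other one that belongs to a factor with separated groups.
Cebpa, chr1:96896334-96896633, plus strand: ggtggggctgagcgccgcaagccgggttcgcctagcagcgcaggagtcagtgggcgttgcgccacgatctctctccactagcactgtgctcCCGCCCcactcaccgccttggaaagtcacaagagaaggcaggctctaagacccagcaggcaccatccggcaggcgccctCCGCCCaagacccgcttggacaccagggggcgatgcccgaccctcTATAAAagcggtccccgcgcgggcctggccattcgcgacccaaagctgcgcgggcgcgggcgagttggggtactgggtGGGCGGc
It carries TATAAA beginning 35 bases before the start and GC boxes beginning 159 and 80 bases before it. Another GC box lies after the start. It is rich in G and C (68.7%), with 28 CpG pairs against 8 in the Foxa2 window. None of the 5 windows of the 4 factors matched to RefSeq, Hnf4a with its 2, Foxa2, Foxa3 and Cebpa, holds the FOXA, C/EBP or HNF4A letters.

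Onecut1 had the steadiest difference of the 3 separated factors. It was at 8.18 and 8.14 in thiamine rats 1 and 2 and at 7.91 and 7.84 in untreated rats 1 and 2. The rats of a group differed by 0.044 and 0.076, below the median gaps over all genes of 0.16 between thiamine rats and 0.22 between untreated rats. The difference of 0.29 corresponds to 1.22-fold with a 95% interval from 0.93-fold to 1.598-fold (limma, adjusted p = 0.84). With 1 array left out it stayed between 0.25 and 0.32. The offset of 50 added in the background correction draws the differences of weak signals towards 0. With an offset of 16 the difference was 0.33 and with plain background subtraction 0.37. Before normalization, the background-subtracted intensities were 240.8 and 244.1 with thiamine and 167.4 and 153.6 without.

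Prox1 encodes a homeodomain protein of hepatocytes that is also the master factor of lymphatic endothelium. It was at 9.16 and 9.35 in thiamine rats 1 and 2 and at 9.51 and 9.05 in untreated rats 1 and 2. The untreated rats were the highest and the lowest, so the groups overlapped, with a difference of -0.03 ± 0.21. Its spots were flagged as contaminated on the arrays of thiamine rat 1 and untreated rat 1. With flagged spots set to missing, which leaves 1 array per group, the difference was 0.30.

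**Figure D3:**
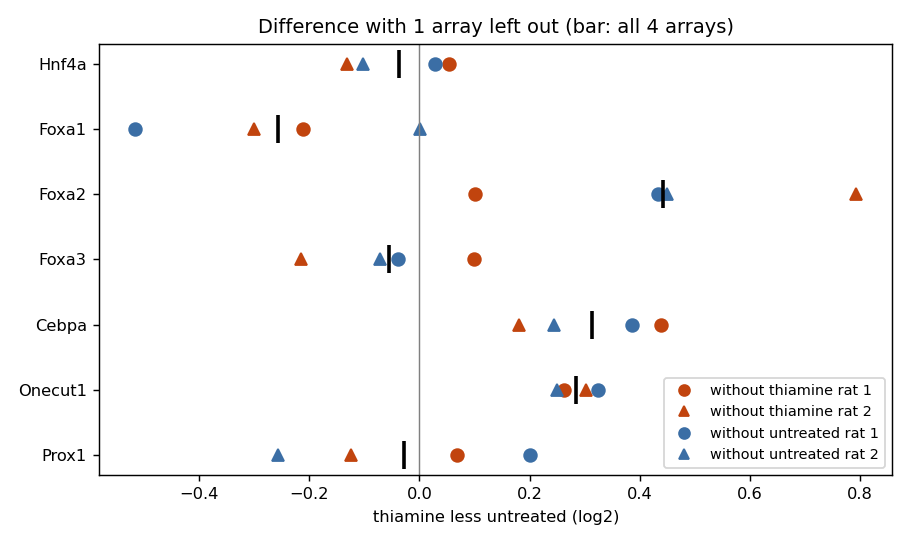
Thiamine less untreated on the log2 scale (horizontal axis) of the 7 factors, with a symbol for the value without each of the 4 arrays and a bar at the value with all. Onecut1 stays between 0.25 and 0.32, Foxa2 ranges from 0.10 to 0.79, and Hnf4a, Foxa1, Foxa3 and Prox1 have values on both sides of 0.

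Among the 7 factors 5 had a wider gap between the thiamine rats than the median gene, and 2, Foxa1 and Prox1, a wider one between the untreated rats. Foxa1, Foxa2 and Cebpa spanned at least 0.5 over the 4 livers. For these, the genes with the nearest course over the 4 arrays were sought among the 8208 other genes above background on all of them, by the root mean square distance of centred log2 values. For Foxa2 they were Cd83, an activation marker of immune cells (distance 0.016), Ttc7a (0.047) and Lst1, a leukocyte gene (0.048), and 17 genes lay within 0.1. For Foxa1 they were the hydrolase Aadac (0.020), Zfp395 (0.024) and Skil (0.027), with 139 genes within 0.1, and for Cebpa Gosr2 (0.015), Urb1 (0.017) and Mpp2 (0.020), with 345. Over 4 arrays many genes share a course, and no test was made.

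The other factors of the network had differences of both signs. Of 34 listed, 25 were measured, with 15 higher, 10 lower and 0 past the test, and a median of 0.043. Of the 25, 24 were above background on all 4 arrays. The 15 include a gene kept only through the thiamine group, where it was higher. Nr0b2, known as SHP, a repressor that binds HNF4A and other receptors, differed by -0.82 ± 0.21, at 11.22 and 11.05 with thiamine and 12.21 and 11.69 without. Nr2f2, an orphan receptor that can occupy HNF4A sites, differed by 0.64 ± 0.20, or 0.41 without untreated rat 2. Hhex, a homeobox factor of liver bud growth that liver endothelium also expresses, differed by 0.70 ± 0.26, a value between 0.34 (untreated rat 1 left out) and 1.08 (untreated rat 2 left out). These 3 were chosen by their small unadjusted p, and their groups were apart. Of the 25, 6 had groups apart and higher and 5 apart and lower, beside 18.5% and 19% of all genes. The 6 include the gene kept only through the thiamine group. Among 16 measured partners and inhibitors of 18 listed, 13 lay above 0, 3 below and 0 passed. Their median was 0.20, or 0.084 without untreated rat 1. Of the 16, 14 were above background on all 4 arrays. The 13 include a gene kept only through the thiamine group, where it was higher. Id3, an inhibitor of helix-loop-helix factors, differed by 0.61 ± 0.19 and Ddit3, which blocks C/EBP proteins by dimerizing with them, by 0.42 ± 0.19. Stat3, the acute phase activator that works with C/EBP beta, differed by -0.50 ± 0.20, or -0.30 without untreated rat 1.

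Genes known to be bound or controlled by these factors were set beside them in 4 lists of 51 different genes, of which 46 were measured. Tat, Pck1 and G6pc1 stand on all 4, so the lists are not independent. Of 24 measured HNF4A targets 8 lay above 0 and 16 below, their median being -0.043, and 1 had groups apart and higher and 3 apart and lower, beside the 18.5% and 19% of all genes. The median turned to 0.0063 when thiamine rat 1 was left out, and was -0.10 with thiamine rat 2, -0.011 with untreated rat 1 and -0.018 with untreated rat 2 left out. The smallest unadjusted p-values in this list belonged to the bile acid enzyme Cyp8b1 (-0.49 ± 0.24, above background on 1 of 2 thiamine arrays and kept through the untreated group), the clotting factor F7 (0.40 ± 0.25) and the tyrosine aminotransferase Tat (0.51 ± 0.36). All 3 had overlapping groups. The difference of Cyp8b1 ranged from -0.18 (thiamine rat 1 left out) to -0.78 (thiamine rat 2 left out), and was -0.27 with untreated rat 2 left out, while the difference of F7 was -0.01 when untreated rat 1 was left out and that of Tat -0.11 when thiamine rat 2 was.

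FOXA targets were higher in 9 and lower in 5 of 14, with a median of 0.089. It was -0.091 without thiamine rat 2 and 0.16 with flagged spots set to missing. Afp, the fetal counterpart of albumin, differed by -0.82 ± 0.19, at 10.45 and 10.22 with thiamine and 11.26 and 11.04 without. The urea cycle enzyme Cps1 differed by 0.53 ± 0.18 and the glucose carrier Slc2a2 by 0.41 ± 0.20, or 0.18 without untreated rat 2. Of the C/EBP targets 14 of 19 measured lay above 0 and 5 below. Their median was 0.13, or 0.048 without thiamine rat 2 and 0.18 with flagged spots set to missing. In this list 7 were apart and higher against 1 apart and lower, beside 18.5% and 19% of all genes. Sds, which breaks down serine, differed by 0.98 ± 0.28 (0.55 without untreated rat 2), Cps1 as above, and Hamp, the iron hormone, by 0.52 ± 0.19. For ONECUT1 targets 6 of 10 were higher and 4 lower, a count that includes Hnf4a and Foxa2 themselves, with a median of 0.14 that turned to -0.091 when thiamine rat 2 was left out and to -0.037 when untreated rat 2 was. Pfkfb1, the gene from whose promoter ONECUT1 was first isolated, differed by 0.55 ± 0.29, or 0.01 without untreated rat 2. No gene on these lists passed the test over all probes.

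**Figure D4:**
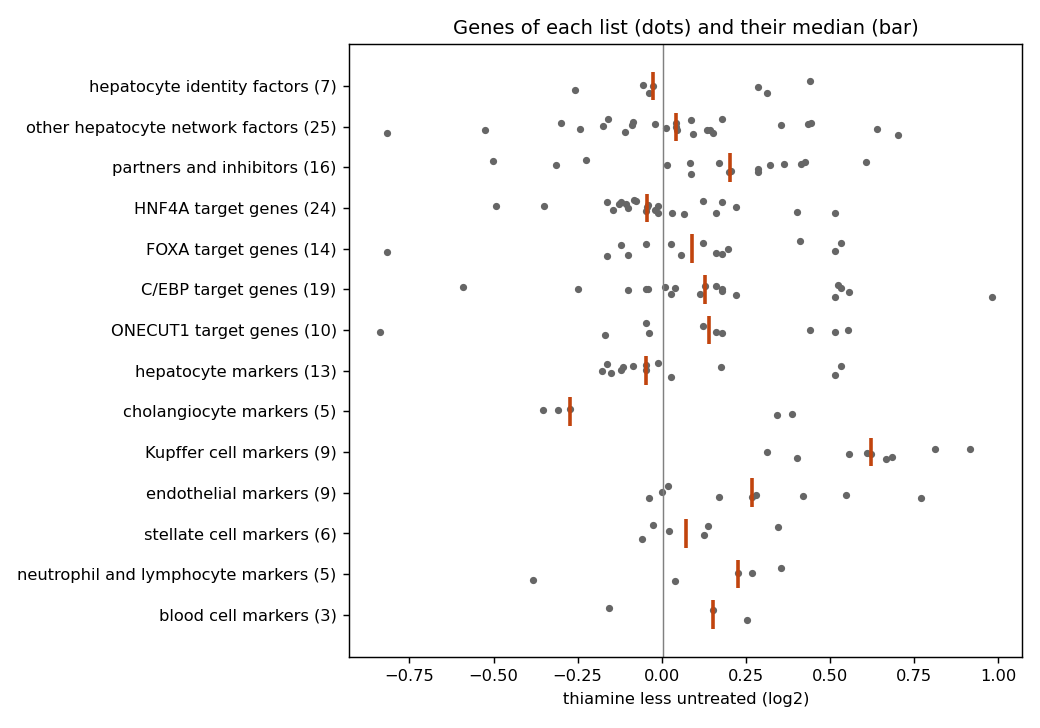
Thiamine less untreated on the log2 scale (horizontal axis) of the measured genes of each list, as dots with a bar at the list's median and the number measured in brackets. The grey line is the median of all genes at 0.0035. The Kupffer cell markers lie furthest to the right with a median of 0.62, and the hepatocyte markers lie around -0.05.

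Markers of the liver's cell types were set beside the factors. Hepatocyte markers had a median of -0.05, with 4 higher and 9 lower of 13. That median was -0.011 without thiamine rat 1, -0.13 with median scaling and -0.044 with flagged spots set to missing. Between 31 and 40 gene probes on an array were flagged as saturated. Besides Cps1 and Tat their smallest unadjusted p was that of the plasma protein Ahsg (-0.18 ± 0.18). All 9 measured Kupffer cell markers, out of 13 listed for these macrophages of the liver, were higher with a median of 0.62, or 0.32 without thiamine rat 1, and 6 had groups apart, beside 18.5% of all genes. Ctss differed by 0.92 ± 0.25, C1qa by 0.81 ± 0.24 and C1qb by 0.66 ± 0.21, and those of Ctss and C1qa were 0.57 and 0.52 without thiamine rat 1. Their summed linear intensity was 29060 and 20200 in thiamine rats 1 and 2 and 19730 and 12800 in untreated rats 1 and 2. Thiamine rat 1, the liver with the highest Foxa2, was also the highest here, and untreated rats 1 and 2, which were close in Foxa2, were far apart. Their part in the differences of Foxa2 and Cebpa, a gene that myeloid cells also express, was not tested.

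Endothelial markers, relevant to Prox1 and Hhex, were higher in 7 and lower in 2 of 9 measured out of 14, with a median of 0.27, or 0.16 without thiamine rat 1. Their summed intensity was between 6489 and 7252 with thiamine and between 5194 and 5455 without. Lyve1 differed by 0.77 ± 0.20, Pecam1 by 0.55 ± 0.18 and Kdr by 0.42 ± 0.20 (0.20 without untreated rat 2). Bile duct cells also express Onecut1, Foxa1 and Foxa2. Of 11 of their markers 5 were measured, 2 of them higher with thiamine and 3 lower, and their median of -0.27 was 0.10 without untreated rat 1. Their summed intensity was between 2115 and 2273 with thiamine and between 2293 and 2813 without. Krt19 differed by 0.34 ± 0.19, or 0.22 without untreated rat 2, and Prom1 by -0.31 ± 0.19, or -0.20 without untreated rat 1. Cldn7 was not well above background in either untreated rat and was kept only through the thiamine group, where it was higher. Its thiamine mean was 1.18-fold the lowest signal above background on each untreated array, or its own signal where that was higher. Its difference did not pass the test (limma adjusted p = 0.80), so this ratio is no minimum for the change. The part of these cells in the values of Onecut1 and Prox1 was not tested.

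Stellate cell markers had a median of 0.073 over 6 measured genes, led by Rgs5 (0.35 ± 0.18), Col1a2 (0.13 ± 0.18) and Reln (0.14 ± 0.25, or -0.27 without untreated rat 2). Markers of neutrophils and lymphocytes had one of 0.23 over 5, which was -0.041 without thiamine rat 1, with S100a9 at -0.38 ± 0.22, Cd3d at 0.35 ± 0.23 (above background on 1 of 2 untreated arrays) and Cd3e at 0.23 ± 0.19. With 1 array left out S100a9 ranged from -0.68 to -0.078 (thiamine rats 1 and 2), Cd3d from 0.021 to 0.70 (untreated rats 2 and 1) and Cd3e from 0.11 to 0.34 (thiamine rats 2 and 1). Markers of red blood cells had one of 0.15 over 3, Alas2 (0.25 ± 0.28), Slc4a1 (0.15 ± 0.19) and Ahsp (-0.16 ± 0.23), which turned to -0.17 when untreated rat 2 was left out and to -0.012 when thiamine rat 1 was. With 1 array left out Alas2 ranged from -0.17 to 0.68 (untreated rats 2 and 1), Slc4a1 from 0.025 to 0.28 (thiamine rats 2 and 1) and Ahsp from -0.48 to 0.17 (thiamine rats 1 and 2). These lists had 4, 4 and 2 genes above 0. Cd3d, among them, was kept only through the thiamine group, where it was higher.

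**Figure D5:**
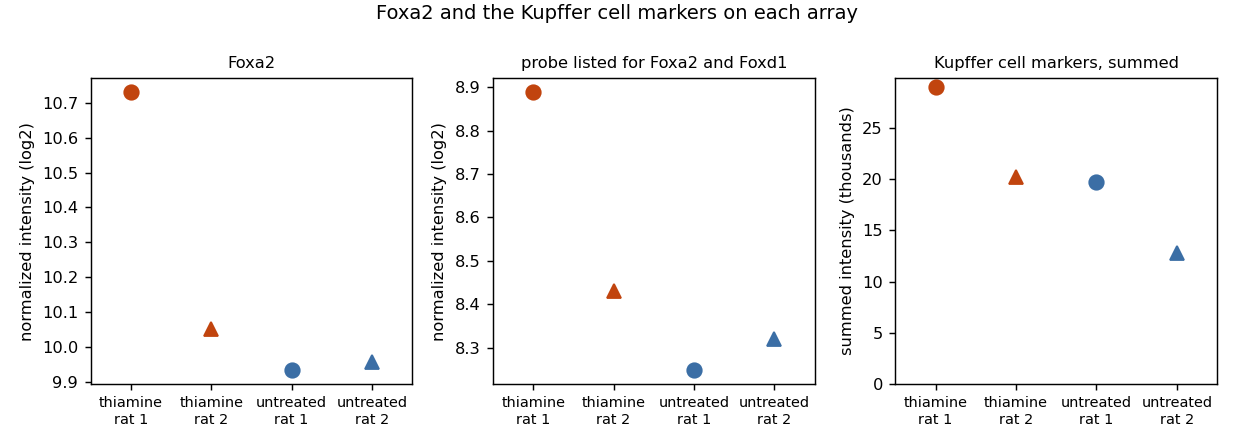
Level on each of the 4 arrays (horizontal axis) of Foxa2 and of the probe listed for Foxa2 and Foxd1 (normalized log2 intensity), and the summed linear intensity of the 9 Kupffer cell markers. Thiamine rat 1 is highest in all 3 panels, while the untreated rats lie together for Foxa2 and apart for the markers.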

How the data were processed

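Per the file headers, CodeLink Expression Analysis wrote a report for each array with the spot mean and local background median as intensity on a linear scale. The deposited value table also holds intensity, ranked nearly as the background-subtracted values of the same array (Spearman correlation over probes at least 0.999999), and its making is not given in sources used here. The normexp correction, with 50 as offset, ran over 35129 features. The 1280 control features were left out and log2 values of 33849 gene probes were quantile normalized. Masked spots were missing. The filter kept 18664 probes that either group had above background on both of its arrays.

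Probes were named from the platform annotation, updated by gene identifier to RefSeq (GRCr8), or through the reports' RefSeq accession, and 165 with several symbols were left unnamed. A gene is its brightest kept probe over the 4 arrays. Thiamine was compared with untreated in limma 3.58.1 under R 4.3.3, by lmFit with eBayes. Its two-sided p-values were adjusted by Benjamini-Hochberg across the 18664 probes and called under 0.05. The residual degrees of freedom were 2, or 10.8 after moderation. The fit was tested on simulated data whose 200 planted changes were all larger than the differences of the 7 factors. That test cannot show whether differences of their size would be found. The factors, the 13 other lists and the tests were chosen with earlier results of these data known. Of 178 listed symbols 45, Cebpb among them, had no kept named probe and were not analysed here. Besides the 7 factors, the text names 3 genes per list by the smallest unadjusted p, the nearest 3 genes of each factor that spans at least 0.5, and other genes of the lists, chosen after their values were seen, only where the tissue is checked against its markers. A gene that this rule names is not reported here. Alternatives covered the background correction, offset, scaling, filter, flagged spots, deposited table, moderation, replicate number as a block and leaving out each array.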

Additional observations from a re-analysis of the deposited data

How the results depend on the processing

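Foxa2, Cebpa and Onecut1 stayed above 0 in all 13 alternatives, and none of the 7 factors passed the adjusted threshold in any alternative run. Many of these signs were fixed in advance. For Foxa2, Cebpa and Onecut1 the block, the moderation and the changes of filter left the difference unchanged. Leaving out an array could hardly turn its sign, since both thiamine arrays lay above both untreated arrays. Without each replicate in turn the difference ran from -0.131 to 0.0533 for Hnf4a, from -0.516 to 0.000344 for Foxa1, from -0.214 to 0.0994 for Foxa3 and from -0.256 to 0.201 for Prox1. That of Prox1 was 0.00764 with median scaling and 0.296 with flagged spots set to missing, which leaves 1 array per group for this probe. The median over the 7 factors was 0.283 with flagged spots set to missing and ran from -0.124 to 0.201 without each replicate. The count of called probes was 1 with the deposited table, 126 with the replicate block and between 2 and 87 without each replicate, and 0 in the other alternatives. The replicate numbers are not said to mark a shared cage or day, the deviations of same-numbered rats correlated at -0.074 over the probes, and the block changed no call on the 7 factors. Of 169 list medians under alternatives 152 moved by less than the spread between rats. The block, the moderation and the lifting of the filter cannot move a list median, so part of this count was fixed in advance. A median could also change sign within that spread, as that of the HNF4A targets did without thiamine rat 1 (0.0063). With 2 rats per group, each on 1 array, the spread between animals and that between arrays cannot be told apart. No alternative adds precision. The causes of these changes were not tested.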
